A study of Mus musculus with 6 samples.

Results

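The aryl hydrocarbon receptor gene Ahr, its partner Arnt, its repressor Ahrr, the AHR target genes Cyp1a1, Cyp1b1 and Tiparp, the quinone reductase gene Nqo1 and the NRF2 gene Nfe2l2 were followed in group 1 innate lymphoid cells (ILC1) of the mouse liver. They were taken by symbol from the deposited table of raw read counts, where all 8 were found among 24091 symbols. The cells came from C57BL/6 mice at day 14. The AML group had received C1498 cells, a transplantable leukaemia line of that mouse strain, by intravenous injection, and the healthy group had received none. Each group had 3 libraries of poly(A)-primed cDNA made from 2 ng of total RNA, called AML 1 to 3 and healthy 1 to 3 here. How the ILC1 were sorted, the age in weeks and sex of the mice, and whether a library stands for a single animal or a pool are not in the labels. The p-values therefore describe the spread among the 6 libraries, part of which may be technical.

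AHR is a ligand-activated transcription factor of the bHLH-PAS family. Without ligand it is held in the cytosol by HSP90 and its co-chaperones, among them p23. With ligand, such as a tryptophan metabolite or dioxin, it enters the nucleus, pairs with ARNT and binds DNA at a core of GCGTG. Its classical targets are the cytochrome P450 genes Cyp1a1 and Cyp1b1, whose enzymes break the ligands down, and Ahrr and Tiparp, whose products dampen AHR. NRF2, the product of Nfe2l2, is the parallel sensor of oxidative stress. It is kept low by KEAP1 and CUL3, pairs with small MAF proteins, and shares the target Nqo1 with AHR. AHR is known to be needed for tissue-resident innate lymphocytes, among them ILC3 of the gut and resident group 1 cells of the liver.

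The start regions of 4 AHR target genes are shown because the genes share the core letters but gave anything from 0 to 5203 reads per library. Each is the stretch of 250 bases before the RefSeq start of the gene in GRCm38.p6, written 5′ to 3′ on the strand of the gene, with every match to GCGTG or its reverse complement in capitals.
Cyp1a1, chr9:57697363-57697612, plus strand: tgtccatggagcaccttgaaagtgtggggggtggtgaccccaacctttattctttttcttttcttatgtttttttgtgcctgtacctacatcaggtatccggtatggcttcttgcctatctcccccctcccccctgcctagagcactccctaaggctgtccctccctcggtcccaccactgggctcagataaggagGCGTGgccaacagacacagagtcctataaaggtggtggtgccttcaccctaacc
Cyp1b1, chr17:79715062-79715311, minus strand: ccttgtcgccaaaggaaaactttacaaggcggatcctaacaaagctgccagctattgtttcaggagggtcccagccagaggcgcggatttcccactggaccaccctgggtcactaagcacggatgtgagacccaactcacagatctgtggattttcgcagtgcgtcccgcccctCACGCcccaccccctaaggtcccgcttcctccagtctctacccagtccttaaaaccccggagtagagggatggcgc
Ahrr, chr13:74292332-74292581, minus strand: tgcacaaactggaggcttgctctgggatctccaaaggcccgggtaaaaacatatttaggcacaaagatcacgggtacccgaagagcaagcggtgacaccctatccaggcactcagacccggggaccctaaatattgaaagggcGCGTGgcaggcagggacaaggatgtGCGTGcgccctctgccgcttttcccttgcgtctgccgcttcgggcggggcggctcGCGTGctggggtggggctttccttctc
Tiparp, chr3:65528197-65528446, plus strand: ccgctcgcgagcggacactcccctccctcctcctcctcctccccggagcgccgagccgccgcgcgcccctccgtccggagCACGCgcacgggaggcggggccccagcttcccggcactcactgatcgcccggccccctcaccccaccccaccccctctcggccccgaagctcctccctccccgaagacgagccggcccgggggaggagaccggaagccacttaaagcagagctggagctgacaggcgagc
Cyp1a1 held 1 match at 54 to 50 bases before the start, Cyp1b1 1 match on the opposite strand at 76 to 72, Tiparp 1 match on the opposite strand at 170 to 166, and Ahrr 3 matches. One of the 3 Ahrr matches lay within the longer form TNGCGTG, which contains the core. On either strand the core occurred in 28.2% of 32841 RefSeq start regions of this length and the longer form in 4.1%. Of the 8 genes 7 had a start region in the RefSeq table, all but Ahr, and 5 of them held the core, the fifth being Arnt. RefSeq spans Cyp1a1 from farther upstream, as the count table does, so its window lies inside that span. A match describes the letters only, and the best known AHR-bound elements of Cyp1a1 lie farther upstream than this window.

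The libraries held 45135093 to 51284691 reads, and the levels below are CPM, the read counts of a gene scaled to a common library size by TMM. Marker genes of ILC1 were abundant. The 11 marker genes of ILC1 in the table summed to 18579 to 19472 CPM in healthy against 16132 to 18376 CPM in AML libraries, with Gzmb and Il2rb the most abundant. Genes of conventional NK cells, led by Ly6c2 and Klra3, summed to 81.4 to 94.9 CPM in healthy against 97.7 to 135 CPM in AML libraries, with a positive fold change for 6 of 7 tested genes. Among them Eomes lay between 4.96 and 17.1 CPM, and Klra4 had 0 reads. Genes of ILC3 and ILC2, cells known for AHR use, summed to at most 2.38 CPM, with Il22, Il17a and Il5 at 0 reads. Hepatocyte genes summed to at most 4.01 CPM, with Cps1 and Tat at 0 reads, and B cell genes to at most 7.54 CPM. T cell genes, led by Cd3d and Cd3e, summed to 28.7 to 86.1 CPM and endothelial and stellate genes, nearly all of it Pecam1, to 91.3 to 127 CPM. All 8 tested macrophage genes, led by Csf1r and C1qb, had a positive fold change, and the sum of that list was 24.4 to 84.3 CPM in healthy against 119 to 190 CPM in AML libraries. Dendritic cell genes, led by Cd74 and H2-Aa, summed to 80.3 to 148 CPM in healthy against 266 to 461 CPM in AML libraries. Monocyte and neutrophil genes, led by Cebpb and Lyz2, summed to 519 to 1187 CPM in healthy against 760.04 to 1163 CPM in AML libraries, with Ly6g at 0 reads. Of the 6 tested genes of that list 5 were higher in AML on average and the median log2 fold change was 1.79, whereas Cebpb, the most abundant, was at -0.62. AML 1 stood apart from the rest of its group. A chi-square of read counts per gene, about 1 under sampling noise, was 82.1 and 97.5 between AML 1 and the other AML libraries and 26.9 between AML 2 and AML 3, while pairs of healthy libraries gave 36.7 to 59.1.

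Ahr, Arnt, Nfe2l2 and Tiparp were clearly expressed in liver ILC1, whereas the 2 P450 genes gave no reads at all and Nqo1 and Ahrr almost none. Of the 5 genes abundant enough to be tested (Ahr, Arnt, Nfe2l2, Tiparp and Ahrr), 0 differed between AML and healthy libraries at an adjusted p of 0.05 by edgeR's quasi-likelihood test, where 0% of all 12469 genes passed. At an unadjusted p of 0.05 there were 0 of the 5 against 8.84% of all genes, 5.08% higher and 3.75% lower in AML. The groups did not overlap for 0 of the 5 against 15.5% of all genes, 8.20% with AML above and 7.34% with AML below. DESeq2, the likelihood ratio test of edgeR and limma-voom also called 0 of them. The median log2 fold change of the 5 genes, AML minus healthy, was -0.05, beside 0.01 over all genes tested. Over the alternatives, in which 4 to 6 of the 8 genes could be tested, the median ran from -0.12 to 0.03. One of the 5, Tiparp, changed its call when a single library was left out.

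**Figure D1:**
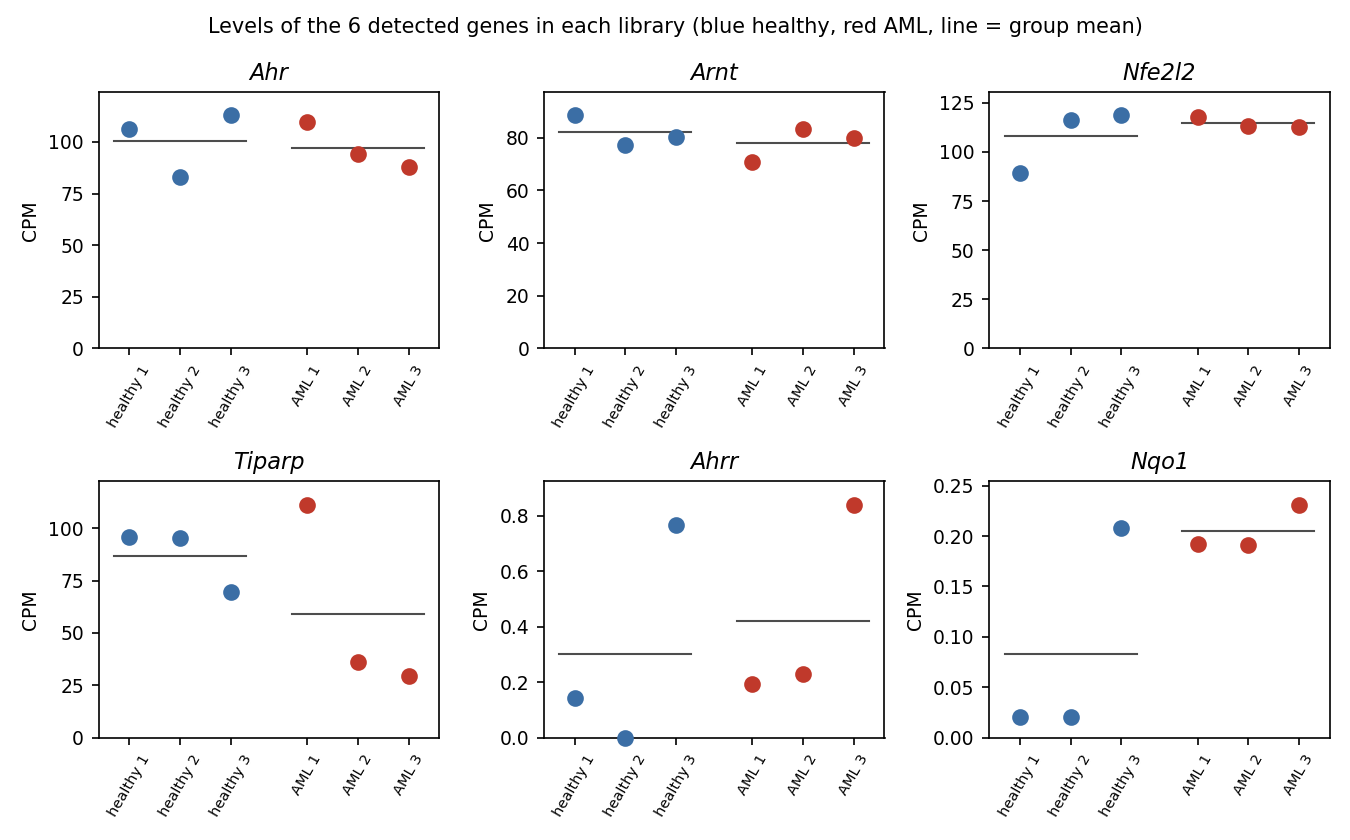
CPM (vertical axes, linear, each with its own scale from 0) of the 6 genes with reads, 1 point per library, with healthy libraries in blue, AML libraries in red and a line at each group mean. Ahr, Arnt and Nfe2l2 sit at 71.0 to 119 CPM in every library, Tiparp lies at 36.2 and 29.6 CPM in AML 2 and AML 3, and Ahrr and Nqo1 reach at most 0.841 and 0.231 CPM.

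The receptor gene Ahr lies on the minus strand of chromosome 12 at 35497979 to 35534989 (mm10, positions as the count table gives them). It measured 106, 82.8 and 113 CPM in healthy 1, 2 and 3 and 109.7, 93.9 and 87.8 CPM in AML 1, 2 and 3. The groups overlapped, as the lowest library was healthy 2 and the highest was healthy 3. The means were 101 ± 15.8 CPM (SD, n = 3) in healthy and 97.1 ± 11.3 CPM (SD, n = 3) in AML libraries, for a log2 fold change of -0.05 ± 0.14 (SE; adjusted p 0.916). The 95% interval of the difference ran from -0.36 to 0.26, so the libraries leave room for a level in AML between 0.777 and 1.20 times that in healthy mice.

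Arnt encodes the partner that AHR needs to bind DNA (chromosome 3, plus strand, 95434390 to 95497239). Its levels were 88.5, 77.5 and 80.3 CPM in the healthy libraries and 71.0, 83.2 and 80.03 CPM in the AML libraries. The lowest value belonged to AML 1 and the highest to healthy 1, and the groups overlapped. Its log2 fold change was -0.07 ± 0.09 (SE; adjusted p 0.805), with a 95% interval from -0.29 to 0.14. Gm4349, a gene model that overlaps Arnt on the same strand, had 0 reads in every library.

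Nfe2l2 (chromosome 2, minus strand, 75675513 to 75704663) was the most abundant of the 8 genes. It measured 89.3, 116 and 119 CPM in healthy against 118, 113 and 113 CPM in AML libraries. The AML libraries lay within the healthy range, which healthy 1 widened downward. The gene lies inside the very long entry of Mir684-1, which had 95 to 153 reads per library. The log2 fold change was 0.08 ± 0.11 (SE; adjusted p 0.816), with a 95% interval from -0.18 to 0.35.

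Levels of different genes were compared per kilobase of gene length, as RPKM. Nfe2l2 averaged 29.2 RPKM over the 6 libraries, above 78.0% of the genes tested, Ahr 18.04 RPKM, above 68.03%, Tiparp 17.6 RPKM and Arnt 11.3 RPKM. The range of Nfe2l2, from 23.4 to 31.1 RPKM, did not overlap that of Ahr, from 15.1 to 20.6 RPKM. Tiparp ranged from 7.13 to 26.8 RPKM and so overlapped both Ahr and Arnt, which are its neighbours in the order. Ahr exceeded Arnt in every library, by a ratio of 1.38 to 2.003. The remaining 4 genes lay far below, with Nqo1 at 0.0930 and Ahrr at 0.0393 RPKM on average, 2 neighbours whose ranges overlapped, and with Cyp1a1 and Cyp1b1 at 0.

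The target genes separated into 1 that was abundant and several that were silent or nearly so. Cyp1a1 (chromosome 9, plus strand, 57687928 to 57703824) and Cyp1b1 (chromosome 17, minus strand, 79706894 to 79715041) had 0 reads in all 6 libraries. At these depths 0 reads allow at most 3 reads per library, or 0.0574 to 0.0642 CPM, counting error only. No other gene of the count table overlaps either of them. By the rule of less than 0.5 CPM in every library, Cyp1a1, Cyp1b1 and Nqo1 were not expressed.

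Nqo1, an NAD(P)H quinone reductase (chromosome 8, minus strand, 107388225 to 107403205), had 1, 1 and 10 reads in healthy 1, 2 and 3 and 9, 10 and 11 reads in AML 1, 2 and 3. That is 0.0203, 0.0201 and 0.208 CPM against 0.192, 0.191 and 0.231 CPM. Healthy 3 lay among the AML libraries, so the groups overlapped, and the gene was too low to be tested.

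Ahrr, the AHR repressor (chromosome 13, minus strand, 74211118 to 74292331), had 7, 0 and 37 reads in the healthy and 9, 12 and 40 reads in the AML libraries. In both groups the third library was the high one, at 0.768 and 0.841 CPM, and the other libraries stayed at or under 0.230 CPM. The log2 fold change of 0.47 ± 1.27 (SE; adjusted p 0.917) had a 95% interval from -2.48 to 3.43, so its direction was not resolved.

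Tiparp, also known as PARP7, encodes a mono-ADP-ribosyltransferase that is known to restrain AHR (chromosome 3, plus strand, 65528447 to 65555518). It measured 95.7, 95.1 and 69.5 CPM in healthy 1, 2 and 3 and 111, 36.2 and 29.6 CPM in AML 1, 2 and 3. AML 1 was the highest of all 6 libraries, while AML 2 and AML 3 lay below every healthy library. Mean levels were 86.7 ± 15.0 CPM in healthy against 59.0 ± 45.4 CPM in AML libraries (SD, n = 3), giving a log2 fold change of -0.56 ± 0.46 (SE; adjusted p 0.707), with a 95% interval from -1.63 to 0.52. In bulk RNA fewer cells that express a gene and less RNA per cell cannot be told apart.

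Without AML 1, Tiparp was lower in AML, with a log2 fold change of -1.40 ± 0.17 (SE) and an adjusted p of 0.0144. In that fit 1.15% of 12764 genes passed, 0.188% as higher and 0.964% as lower in AML, and Tiparp was the 1 called of the 6 genes that could then be tested. Without both AML 1 and healthy 1 it was -1.32 ± 0.17 (SE; adjusted p 0.00367), where 3.54% of genes passed, 1.79% as higher and 1.74% as lower. Over all alternatives its adjusted p ran from 0.00367 to 0.940. Set against the receptor, Tiparp stood at 1.19, 1.52 and 0.814 times the RPKM of Ahr in the healthy libraries and at 1.34, 0.509 and 0.445 times in the AML libraries. AML 1 also stood out for the neutrophil genes S100a8 and S100a9, at 36.02 and 37.8 CPM. Either gene reached at most 3.17 CPM in the other libraries, and both were picked after their values were seen. The whole monocyte and neutrophil list, led by Cebpb and Lyz2, summed to 1163 CPM in AML 1 and 1187 CPM in healthy 1, with Ly6g at 0 reads. S100a8 and S100a9 make up a small part of that sum. Any part of such cells in the Tiparp level was not tested. Whether reads were counted by strand is not given in the labels. At the start of Tiparp 968 bases overlap 4931440P22Rik on the opposite strand, a gene with 125 to 341 reads per library.

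**Figure D2:**
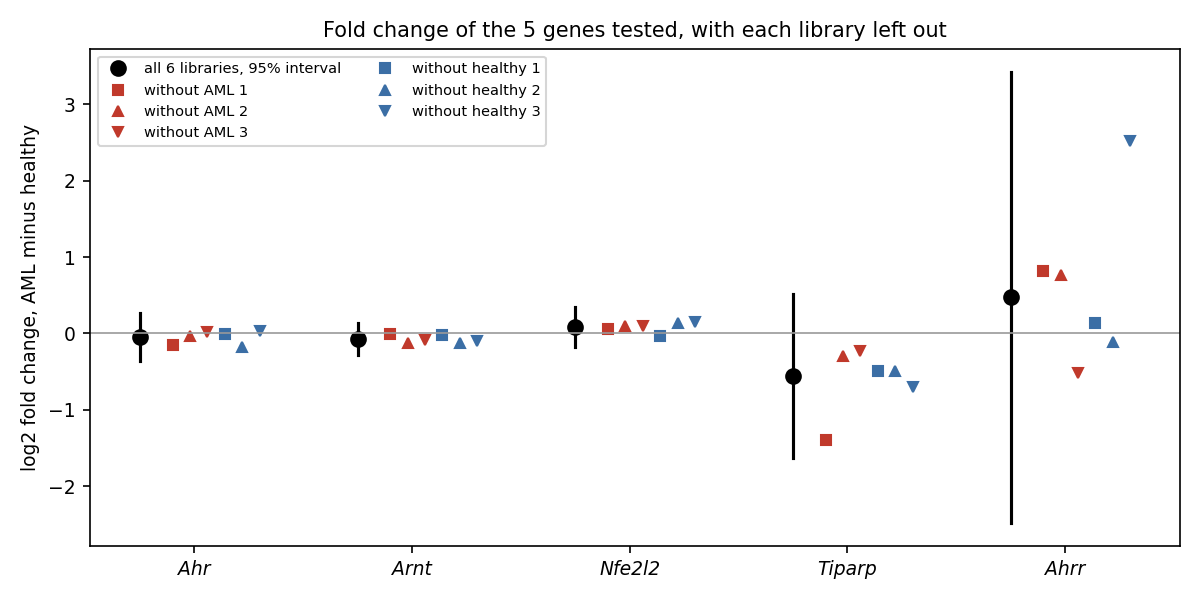
Log2 fold change, AML minus healthy (vertical axis), of the 5 tested genes with all libraries (black, with the 95% interval) and with each library left out in turn (red for AML, blue for healthy). Ahr, Arnt and Nfe2l2 stay between -0.18 and 0.15, Tiparp moves to -1.40 without AML 1, and Ahrr spans -0.51 to 2.52.

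The genes most like Tiparp across the 6 libraries were Nr4a3, Crem and Tgif1, an orphan nuclear receptor, a cAMP-responsive transcription factor and a homeodomain repressor. After centring each gene at its own mean, their log2 CPM differed from that of Tiparp by a root mean square of 0.12, 0.13 and 0.13. Nr4a3 measured 42.9, 36.9 and 31.9 CPM in healthy against 54.0, 17.2 and 15.1 CPM in AML libraries. As for Tiparp, AML 1 was the highest library and AML 2 and AML 3 were the lowest. Those most like Ahr were Hrh2, Rfwd2 and Dcakd, at 0.04, 0.04 and 0.06. The SD of log2 CPM over the libraries was 0.18 for Ahr and 0.80 for Tiparp, and 47.3% and 89.04% of the genes tested varied less.

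Other known AHR targets were mostly absent as well. Of the 10 further targets with a row of counts, 3 could be tested and 0 passed. All 3 had a positive fold change, but Il10 was abundant enough to be tested only through its AML libraries, which fixed its direction in advance. The median of the 3 was 0.59. That median was 0.20 without healthy 2, where Gpr55 turned to -0.0082, 0.36 without AML 1 and 1.14 without healthy 1, and in each case it was the value of Kit. Cyp1a2, Gsta1, Gsta2 and Il22 had 0 reads in every library. Aldh3a1, Ugt1a6a and Serpinb2 stayed at or under 0.214 CPM. Kit, a stem cell factor receptor, measured 22.7, 5.63 and 13.2 CPM in healthy against 27.0, 14.9 and 20.5 CPM in AML libraries, so that the log2 fold change was 0.59 ± 0.45 (SE; adjusted p 0.691). Its groups overlapped, and healthy 2 was the low library. Gpr55, a lipid receptor, lay at 1.71 to 3.22 CPM in all libraries. The cytokine gene Il10 was near the detection limit, at 0, 0.0201 and 0.166 CPM in healthy against 0.620, 0.325 and 0.841 CPM in AML libraries. These groups did not overlap, with AML above, which held for 8.20% of all genes, and the adjusted p of Il10 was 0.494. As only the AML libraries made Il10 abundant enough to be tested, this separation is no support for a difference. The macrophage and dendritic cell genes described above were higher in the same libraries, and their part in the Il10 level was not tested.

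The proteins that hold AHR in the cytosol or act with it in the nucleus were all expressed. All 9 genes of that list were tested, 0 passed in either direction, 7 had a negative fold change and the median was -0.08. At an unadjusted p of 0.05 there were 3 lower genes, the 3 chaperones, against 3.75% of all genes in that direction. Of these 3 chaperones 1, Hsp90aa1, was still under 0.05 without healthy 1 or without AML 3, while without AML 2 it was Hsp90ab1 and without both AML 1 and healthy 1 it was Ptges3 that missed it. Hsp90ab1, the constitutive HSP90, was the most abundant, at 3138, 1550 and 1914 CPM in healthy against 1621, 1407 and 1089 CPM in AML libraries. The log2 fold change of Hsp90ab1 was -0.68 ± 0.26 (SE; adjusted p 0.535), and -0.34 without healthy 1. Hsp90aa1 measured 380, 182 and 253 CPM against 156, 144 and 143 CPM, so every AML library lay below every healthy one. Its log2 fold change was -0.88 ± 0.23 (SE; adjusted p 0.404), and -0.56 without healthy 1. The likelihood ratio test gave it an adjusted p of 0.0380. Ptges3, which encodes p23, had a log2 fold change of -0.28 ± 0.09 (SE; adjusted p 0.479).

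Among the relatives and other partners of ARNT 7 of 13 genes could be tested, 0 passed, 4 were positive and 3 negative. The median of 0.05 turned to -0.11 without AML 1, and to -0.05 by limma-voom and with the replicate number as a block. It was -0.02 without healthy 3 and -0.0046 without AML 3. Hif1a, the hypoxia factor that competes for ARNT, measured 122 to 134 CPM in healthy against 104 to 122 CPM in AML libraries, so that the log2 fold change was -0.18 ± 0.08 (SE; adjusted p 0.569). Arnt2, a close relative of Arnt, lay at 22.03 to 27.2 CPM in all libraries, and the clock genes Arntl and Clock had log2 fold changes of -0.06 ± 0.18 and 0.24 ± 0.17 (SE). Sim1, Sim2 and Npas4, known from neurons, had 0 reads.

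The enzymes that take the first step from tryptophan to AHR ligands were low or absent, while Afmid, which acts next, and Slc3a2, a chain of the carriers of tryptophan and kynurenine, were expressed. Of 14 genes 8 could be tested, 0 passed in either direction, and the median was -0.04 with 4 positive and 4 negative. Over the alternatives, in which 6 to 13 of the genes could be tested, the median ranged from -0.19 to 0.20. At an unadjusted p of 0.05 there were 2 higher genes, Kynu and Slc7a8, against 5.08% of all genes. There were 2 lower ones, Slc3a2 and Kyat3, against 3.75%. Kyat3 measured 1.68, 3.34 and 2.47 CPM in healthy against 1.15, 1.49 and 0.925 CPM in AML libraries. Ido2 had 0 reads, and Ido1 had reads in healthy 2 only, at 0.503 CPM. Tdo2, which does the same step in hepatocytes, and Il4i1 stayed at or under 0.191 CPM. Afmid, the formamidase of the kynurenine route, stood at 59.8 to 68.6 CPM in healthy against 55.7 to 67.6 CPM in AML libraries. Slc3a2, the heavy chain, measured 603, 712 and 556 CPM in healthy against 552, 323 and 265 CPM in AML libraries. All AML libraries lay below the healthy ones, AML 1 only just, and the log2 fold change was -0.71 ± 0.25 (SE; adjusted p 0.497). Without AML 1 Slc3a2 was lower in AML, at -1.09 ± 0.13 (SE; adjusted p 0.0145), the range over all alternatives being 0.00367 to 0.818. The light chain Slc7a5 was at 10.4 to 19.4 CPM, with a log2 fold change of -0.26 ± 0.25 (SE). Slc7a8, another light chain, measured 0.344, 0 and 0.623 CPM in healthy against 2.12, 1.97 and 5.23 CPM in AML libraries, with an adjusted p of 0.479 by the quasi-likelihood test and 0.0448 by DESeq2. Kynu, which encodes kynureninase, was without reads in the healthy libraries and measured 0.321, 0.230 and 0.210 CPM in the AML libraries. That is 4.15-fold over a floor of 3 reads per healthy library, leaving out counting error in the AML reads. Kynu was abundant enough to be tested only through its AML libraries, so its direction was fixed in advance. Its adjusted p, 0.399 by the quasi-likelihood test and 1.91e-04 by the likelihood ratio test, is therefore no support for a difference. The macrophage and dendritic cell lists were higher in the same libraries, and their part in Slc7a8 and Kynu was not tested.

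Of the NRF2 pathway 24 of 26 genes could be tested. With all libraries 0 passed, 18 had a negative and 6 a positive fold change, and the median was -0.08. Keap1, the sensor that holds NRF2, measured 123 to 141 CPM in healthy against 127 to 136 CPM in AML libraries. Ferritin genes were the most abundant per kilobase, with log2 fold changes of -0.13 ± 0.10 (SE) for Fth1 and -0.19 ± 0.13 (SE) for Ftl1. Osgin1, which encodes a stress-induced growth inhibitor, had the smallest p of the list. It measured 1126, 1517 and 1252 CPM in healthy against 745, 425 and 264 CPM in AML libraries. Every AML library lay below every healthy one, and the log2 fold change was -1.44 ± 0.34 (SE; adjusted p 0.399). By the likelihood ratio test its adjusted p was 0.00698.

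Without AML 1, Maff, Mafk, Osgin1 and Sqstm1 were lower in AML, 4 of 24 genes tested in this pathway against 0.964% of all genes in that direction, and 0 were higher. The same 4 passed without both AML 1 and healthy 1, where 1.74% of all genes passed as lower. That fit uses the same AML libraries, AML 2 and AML 3. Without AML 2 or without AML 3, 0 genes of this pathway passed. Without AML 3 the log2 fold changes were -0.68 for Maff, -0.50 for Mafk, -1.15 for Osgin1 and -0.37 for Sqstm1. Over all alternatives their adjusted p reached 0.830, 0.830, 0.816 and 0.829 in that order. Maff and Mafk encode small MAF proteins, the DNA-binding partners of NRF2. Maff measured 77.4, 88.6 and 80.5 CPM in healthy against 76.8, 25.9 and 20.4 CPM in AML libraries, so AML 1 lay just under the healthy libraries and the other AML libraries far below. Its log2 fold change was -1.001 ± 0.45 (SE; adjusted p 0.569), and -1.83 ± 0.13 (SE) with 0.00380 without AML 1. Mafk, named after its values were seen, measured 401, 393 and 333 CPM against 372, 160 and 114 CPM, with a log2 fold change of -0.80 ± 0.39 (SE) and an adjusted p of 0.571, or -1.46 and 0.0113 without AML 1. Sqstm1, the autophagy receptor p62 that also binds KEAP1, was even among the healthy libraries and AML 1, at 1019 to 1050 CPM, and measured 553 and 499 CPM in AML 2 and AML 3. Without AML 1 its change on the log2 scale was -0.98 (adjusted p 0.00537), against -0.56 and 0.569 with all libraries, and that of Osgin1 was -1.92 with 0.0118. In Tiparp, Slc3a2 and these 4 genes AML 1 was the highest AML library. The 6 were singled out for their calls without AML 1, so this likeness is a description.

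**Figure D3:**
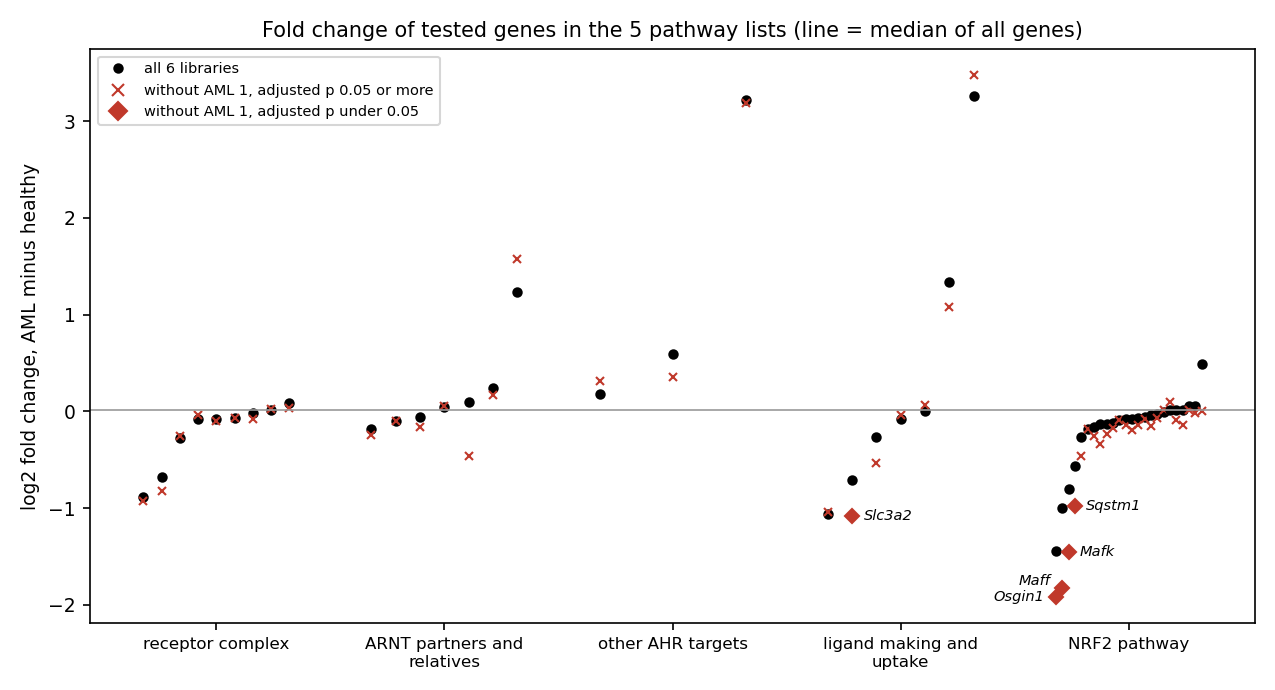
Log2 fold change, AML minus healthy (vertical axis), of each tested gene in the 5 pathway lists with all libraries (black) and without AML 1 (red, diamonds where the adjusted p was under 0.05). Kynu is left out because its healthy libraries had 0 reads. Black points cluster near the line at 0.01, the median of all genes, and the diamonds are Slc3a2, Sqstm1, Mafk, Maff and Osgin1.

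**Figure D4:**
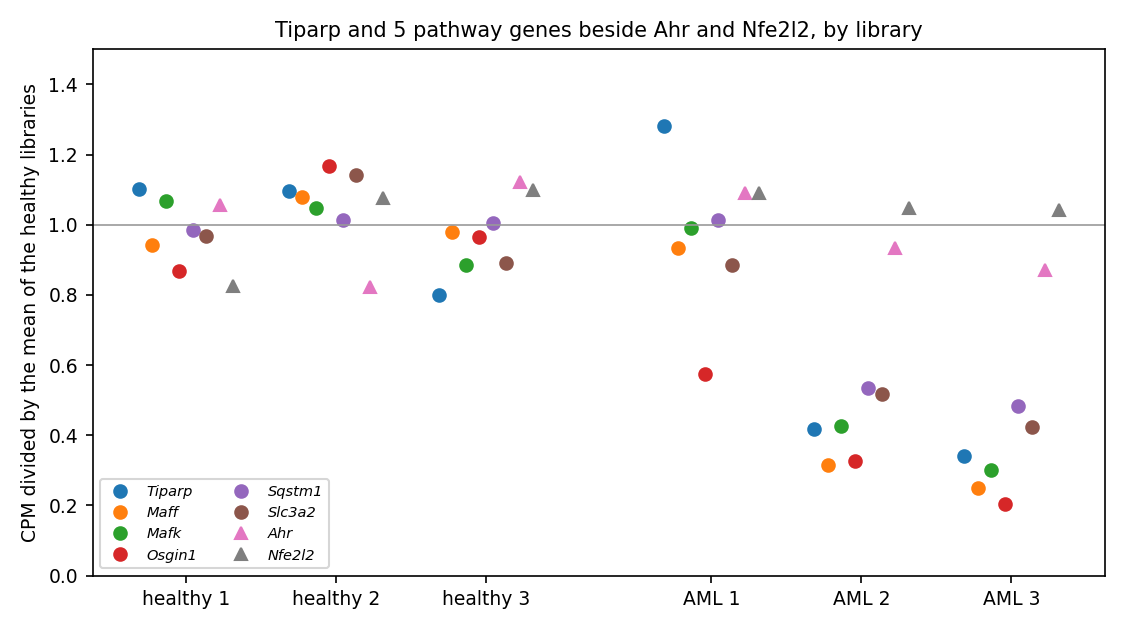
CPM in each library divided by the mean of the healthy libraries (vertical axis, linear from 0) for Tiparp, Maff, Mafk, Osgin1, Sqstm1 and Slc3a2 (circles) and for Ahr and Nfe2l2 (triangles). In AML 2 and AML 3 the circles lie between 0.203 and 0.534, in AML 1 between 0.574 and 1.28, and the triangles stay between 0.823 and 1.12 in every library.

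The table of results that the authors deposited lists 4 of the 8 genes among 9769. In the authors' deposited table the log2 fold changes were -0.05 for Ahr, -0.07 for Arnt, 0.09 for Nfe2l2 and -0.55 for Tiparp. The adjusted p values in the authors' deposited table were 0.994, 0.988, 0.981 and 0.806 in that order.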

How the data were processed

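Per the file headers and values, the authors deposited raw read counts per gene symbol and a second table of their own comparison. Its deposited columns hold p-values raw and adjusted, a score of the likelihood ratio, log2 values of the fold change and mean CPM, and values per library equal to RPKM up to a nearly constant factor. The authors' RPKM values were not used, and RPKM here was computed from the counts. HTSeq 0.6.0, STAR 2.6.0, bcl2fastq 2.18.0.12, edgeR 3.28.1, mm10 and hg19 appear without roles in the submitters' processing notes. How reads in overlapping genes were counted is not given in the sources used here. In RefSeq for GRCm38.p6, 8 of the 8 genes share the chromosome and 6 the start, so positions are given as mm10.

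Groups came from the titles and columns from the description labels. R 4.3.3 and edgeR 4.0.16 were used for a quasi-likelihood test with TMM, filterByExpr at a minimum count of 10, the group as the only term, two-sided, with Benjamini-Hochberg adjustment over 12469 genes. An SE is the fold change divided by the root of F. Log2 CPM for likeness and SD used a prior count of 2. DESeq2 1.42.0, limma 3.58.1, other filters and left-out libraries were alternatives. The test was run on simulated counts first. Named by rule were the 8 genes and, of each pathway list, the 3 tested genes highest per kilobase and the 2 with the smallest p, of marker lists the 2 highest. Outside the rule Eomes, S100a8, S100a9, Keap1, Kyat3 and Mafk were chosen after their values were seen. The members, lists and tests were chosen with earlier results of these data known. Ugt1a6b, Zfp683, Trac and Ighm were not analysed here, and 1 gene of the receptor complex list is not reported here.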

Additional observations from a re-analysis of the deposited data

How the results depend on the processing

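Of 375 fold changes under alternatives, over 27 named genes, 346 kept their direction and side of the threshold, 16 gained a call and 13 reversed, none of them called. With 1 library, or both AML 1 and healthy 1, left out, the log2 fold change of Ahr ranged from -0.18 to 0.030, Ahrr from -0.51 to 2.52, Arnt from -0.12 to 0.048, Nfe2l2 from -0.056 to 0.15, Arnt2 from -0.031 to 0.11, Arntl from -0.33 to 0.062, Gpr55 from -0.0082 to 0.63 and Afmid from -0.18 to 0.015, which covers every reversal. The causes were not tested. The number of the 8 genes past the threshold was 0 to 1 with 1 library left out, the 1 being Tiparp without AML 1, and 1 without both AML 1 and healthy 1. Over all genes the count was 0 by the quasi-likelihood test with all libraries, 143 by DESeq2, 100 by the likelihood ratio test, 2 with no filter on low counts, 0 to 147 with 1 library left out (89 without healthy 1, 147 without AML 1) and 444 without both. The titles number the libraries alike in both groups, but the description labels match for numbers 2 and 3 only. These labels are A1, A4 and A5 for AML 1 to 3 and N3, N4 and N5 for healthy 1 to 3. Libraries with the same title number deviated together unevenly, with correlations of 0.13, -0.05 and 0.16 for numbers 1, 2 and 3. Libraries of different number gave -0.21 to 0.08, so numbers 1 and 3 had the highest values. In the main test the numbers were not taken as pairs. With the replicate number as a block 0 genes passed, and Tiparp stood at -0.81 with an adjusted p of 0.419. Depth limits Ahrr, Nqo1 and the genes with 0 reads.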
